A study of Mus musculus with 29 samples.

Results

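The 6 myosin heavy chain genes of skeletal muscle Myh1, Myh2, Myh3, Myh4, Myh7 and Myh8, together with Ankrd2, were followed as 7 of the 24421 genes of one count table. They were chosen by symbol with earlier results of these data known, and all 7 were in the table. RNA-seq had been done on stripped peritoneum of female C57BL/6J mice, 5 to 6 weeks old, implanted intraperitoneally with YTN16 gastric cancer cells. At 3 weeks (day 21) there were 5 untreated libraries, from mice given PBS, and 5 dual ICI libraries, from mice given both anti-PD1 and anti-CTLA4 antibodies. At 5 weeks (day 35) there were 5 untreated, 5 anti-PD1, 4 anti-CTLA4 and 5 dual ICI libraries. All 29 libraries came from YTN16-implanted mice, and none came from a mouse without tumor cells. The labels give no outcome. The dual ICI libraries numbered 2, 3 and 4 at 5 weeks carry the numbers of mice described as cured, and those numbered 1 and 5 the numbers of mice described as uncured. That a library's number is its mouse's number was assumed. An anti-PD1 mouse was also described as cured, without a number that ties it to a library.

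Skeletal muscle contracts by the myosin motor, whose heavy chain sets the speed of the fiber. Myh4, Myh1 and Myh2 encode the chains of the adult fast fibers of types IIb, IIx and IIa, from fastest to slowest, and Myh7 encodes the slow type I chain, which is also the beta chain of the heart. Myh3 and Myh8 encode the embryonic and perinatal chains, which are made in developing fibers and again when fibers regenerate. Ankrd2 encodes a muscle ankyrin repeat protein that binds titin in the I-band of the sarcomere and is known for its response to stretch. The abdominal wall muscle lies directly under the peritoneum, so a strip of peritoneum can carry muscle with it.

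The fast and developmental genes form a cluster on chromosome 11 of the mouse genome (GRCm38, GENCODE vM21), all on the plus strand. Myh3 lies at chr11:67078300-67102291, Myh2 at chr11:67171027-67197517, Myh1 at chr11:67200052-67224575, Myh4 at chr11:67238029-67260446 and Myh8 at chr11:67277124-67308634. Myh7 lies on the minus strand at chr14:54970684-54994626, and Ankrd2 on the plus strand at chr19:42036000-42045110. Antisense genes overlap Myh1 (Myhas), Myh2 (9430073C21Rik) and Myh7 (Mhrt among others), and since the sources used here do not give a strand setting for the counts, their reads cannot be told apart from those of the 3 genes. The heavy chains resemble each other. Of all stretches of 50 bp in the 6 transcripts, 4.81% (Myh3) to 26.9% (Myh2) occur word for word in another myosin heavy chain or Ankrd transcript. For stretches of 100 bp the range was 1.15% to 11.2% and for 150 bp 0.31% to 5.43%, with Myh7 at the top of both, and for Ankrd2 it was 0% at each length. A read that lies wholly within such a stretch cannot be assigned to 1 gene by its sequence.

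The 200 bases before the RefSeq start site (GRCm38.p6, plus strand) are shown for 5 genes that the results below turn on: Myh4, the most abundant gene, Myh2, the one gene of the 7 called over time, the developmental pair Myh3 and Myh8, and Ankrd2. Capitals mark letters of 5 muscle promoter motifs. These are the E-box (CANNTG), the MCAT element (CATTCC), the TATA box (TATAAA), the MEF2 site and the CArG box, each searched on both strands of the 250 bases before the start. They lie at chr11:67237612-67237811 (Myh4), chr11:67170827-67171026 (Myh2), chr11:67078100-67078299 (Myh3), chr11:67276924-67277123 (Myh8) and chr19:42035827-42036026 (Ankrd2).
Myh4: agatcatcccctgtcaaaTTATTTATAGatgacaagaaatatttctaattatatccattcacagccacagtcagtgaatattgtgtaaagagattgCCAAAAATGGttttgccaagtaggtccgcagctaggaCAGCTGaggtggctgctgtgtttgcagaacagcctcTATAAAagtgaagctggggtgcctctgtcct
Myh2: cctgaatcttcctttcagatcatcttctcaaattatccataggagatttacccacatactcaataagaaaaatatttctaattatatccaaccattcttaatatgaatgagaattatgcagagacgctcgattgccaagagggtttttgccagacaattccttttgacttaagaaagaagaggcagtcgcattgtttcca
Myh3: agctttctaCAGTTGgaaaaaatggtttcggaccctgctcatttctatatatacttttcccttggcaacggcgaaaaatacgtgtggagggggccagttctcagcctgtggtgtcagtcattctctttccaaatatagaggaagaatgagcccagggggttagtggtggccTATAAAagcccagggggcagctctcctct
Myh8: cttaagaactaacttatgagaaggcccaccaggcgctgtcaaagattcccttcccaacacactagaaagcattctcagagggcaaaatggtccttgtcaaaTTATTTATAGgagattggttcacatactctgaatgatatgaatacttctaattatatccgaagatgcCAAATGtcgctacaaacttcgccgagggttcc
Ankrd2: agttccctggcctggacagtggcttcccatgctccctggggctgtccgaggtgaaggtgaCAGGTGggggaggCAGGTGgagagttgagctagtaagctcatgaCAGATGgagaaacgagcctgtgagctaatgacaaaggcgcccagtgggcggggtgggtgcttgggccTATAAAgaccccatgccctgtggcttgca

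Over the 250 bases Myh4 held all 5 motifs, with a MEF2 match beginning 182 bases and a CArG match 104 bases before the start. Myh8 held a MEF2 match 99 bases before the start, inside which a TATAAA also falls. Myh3 and Ankrd2 each held a TATAAA 29 bases before the start, and Ankrd2 held 3 E-boxes. The MCAT match of Myh4 lies 231 bases before the start, beyond the stretch shown. None of the motifs occurred in the Myh2 window, which says nothing of the factors. Among 32851 RefSeq promoters of the same length, 66.22% held an E-box, 12.64% an MCAT element, 12.37% a TATAAA, 2.92% a MEF2 match and 1.47% a CArG match. A match is a run of letters and not a shown binding site.

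All libraries carried skeletal muscle RNA. The 7 genes together took between 0.979% and 6.42% of a library's counts, and total counts lay between 25989217 and 31219650. A reference list of 16 genes of the contractile apparatus common to all fibers, led by Acta1, the skeletal muscle actin, took between 1.82% and 8.87%. The labels call the tissue tumor tissue, so 25 genes of gastric epithelium, led by the keratin Krt8, were read beside it. They took 0.0086%, 0.00409% and 0.00213% of counts in the 3 libraries numbered as cured mice and 0.00571% in anti-PD1 library 5, against 0.0937% to 0.632% in the other 25. In these 4 libraries between 4 and 8 of the 25 genes had no count, Tff1, Gkn1, Gkn2 and Muc5ac in each of them. In the other 25 libraries between 0 and 3 had no count, and these same genes were often among them. Untreated library 2 at 5 weeks lacked Gkn1, Gkn2 and Muc5ac, and dual ICI library 1 at 3 weeks lacked Tff1, Gkn2 and Muc5ac. The same 4 libraries had the 4 highest summed percentages of the muscle reference list, from 8.04% to 8.87%. These 4 go against the label of tumor tissue. Whether anti-PD1 library 5 came from the cured mouse of that group is not given in the sources used here, and results that rest on anti-PD1 library 5 are given with and without it. In bulk tissue, fewer muscle fibers and less RNA per fiber cannot be told apart.

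Myh4 was the most abundant of the 7 genes in every library. Levels are CPM, counts scaled to a fixed library total, with library sizes set by the trimmed mean of M-values (TMM) over all 29 libraries. Divided by transcript length, the median over 29 libraries was 3519 CPM per kb for Myh4, 846 for Myh1, 204 for Myh2, 116 for Myh7, 45.2 for Ankrd2, 2.93 for Myh8 and 1.45 for Myh3. The share of a gene is its percentage of the summed counts of the 7 genes in that library, so the 7 shares sum to 100 and do not move with the amount of muscle if all 7 move together. Myh4 held 66.3% to 85.5% of the sum and Myh1 11.3% to 23.8%, and no other gene exceeded 7.67%.

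**Figure D1:**
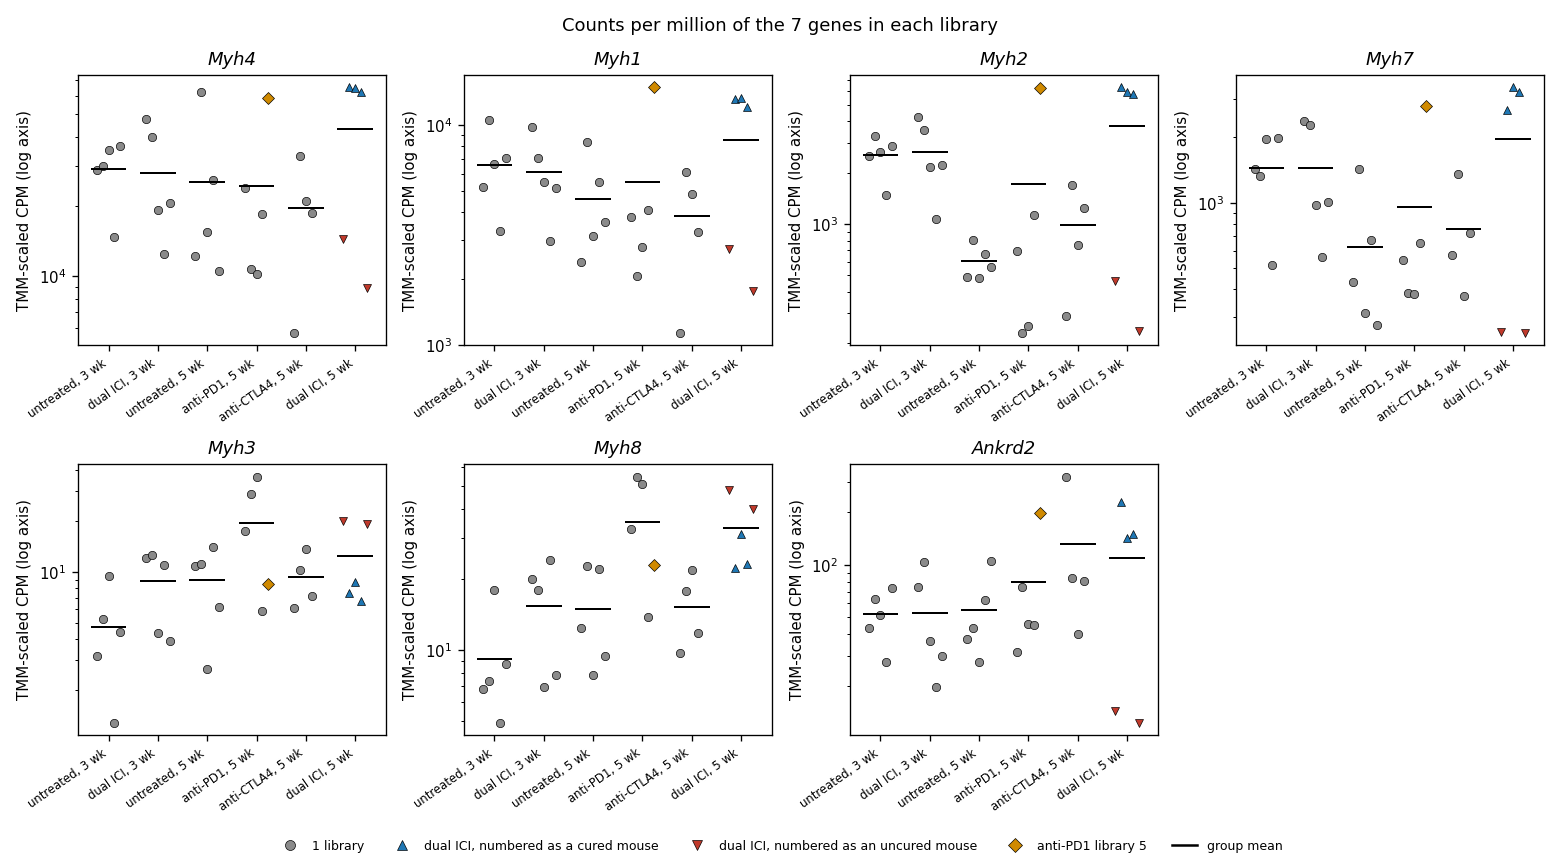
TMM-scaled CPM of each of the 7 genes on a log axis, with 1 point for each of 29 libraries in 6 label groups and a line at the group mean. The 3 dual ICI libraries numbered as cured mice and anti-PD1 library 5 had the 4 highest Myh1, Myh2 and Myh7 levels, whereas for Myh3 they lie between 6.73 and 8.72 CPM, inside the range of the untreated libraries.

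Genes were called with edgeR's quasi-likelihood test at an adjusted p under 0.05 (Benjamini-Hochberg, over every gene tested). Dual ICI against untreated at 3 weeks called 0 of the 7 genes, with 0 of them at an unadjusted p under 0.05 and 0 by DESeq2, while 89 of 15503 genes were called (0.574%). At 5 weeks edgeR called 0 of the 7 genes in dual ICI with all 5 libraries, in anti-PD1 and in anti-CTLA4, and 0 of all genes (0%) there, while 1071, 205 and 128 genes had an unadjusted p under 0.05 and DESeq2 called 46, 0 and 0. An unadjusted p under 0.05 was reached by 2, 1 and 0 of the 7 genes respectively, and DESeq2 called 0 of them in each. The comparison of untreated libraries between 5 and 3 weeks called 1 gene, Myh2, lower (4.58% of 15604 genes were called lower and 6.24% higher). The libraries numbered as cured mice against untreated at 5 weeks called 4 genes higher, Myh2, Myh7, Ankrd2 and Myh1, where 18.0% of 15816 genes were called higher and 26.7% lower. The libraries numbered as uncured mice called 0 of 7 genes with edgeR, where 0% of 16156 genes were called. There 3 of the 7 genes had an unadjusted p under 0.05 and DESeq2 called 1, while over all genes 787 had such a p and DESeq2 called 17. All 5-week comparisons share the same 5 untreated libraries, which are also the later libraries of the comparison over time.

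Myh2, the type IIa chain, had the largest fold change of the 7 genes both over time in untreated mice and in the cured-numbered libraries. In untreated mice its level was 2491, 3290, 2630, 1474 and 2867 CPM at 3 weeks and 490, 811, 485, 667 and 564 CPM at 5 weeks. The groups did not overlap, and the lowest library at 3 weeks stood above the highest at 5 weeks. Myh2 fell by 2.08 on the log2 scale (SE 0.27, adjusted p = 0.00377, edgeR). With all 29 libraries in 1 fit the fold change was the same but the call was lost (SE 0.80, adjusted p = 0.109). Its share fell too, from 6.55% ± 0.760 (SD, n = 5) to 2.497% ± 1.01 (SD, n = 5). The exact permutation test gave p = 0.00794, the lowest value possible for 5 against 5 libraries. The labels place the 3-week and the 5-week libraries in separate library series. Time and series therefore cannot be told apart in this or any other difference over time. The 3 libraries numbered as cured mice belong to the 5-week series, and their Myh2 shares of 7.21%, 6.73% and 6.88% lay within the 3-week range of 5.67% to 7.32%.

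Against the untreated libraries of the same series, the libraries numbered as cured mice had more Myh2 message. Their levels were 6331, 5917 and 5749 CPM, all above the untreated maximum of 811 CPM. Myh2 rose by a log2 fold change of 3.33 (SE 0.30, adjusted p = 0.000136, edgeR). The share was 6.94% ± 0.245 (SD, n = 3) against 2.497% ± 1.01 (SD, n = 5). The exact permutation test gave p = 0.0357, the lowest value possible for 3 against 5 libraries. The other 2 dual ICI libraries had 466 and 238 CPM and shares of 2.59% and 2.12%, inside the untreated range of 1.11% to 3.73%. Over all 5 libraries the mean share was 5.11% ± 2.52 (SD, n = 5), an exact permutation p of 0.0952, and the log2 fold change of 2.65 (SE 0.84) had an adjusted p of 0.634 with edgeR.

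At 3 weeks dual ICI and untreated libraries had like Myh2 shares, 6.97% ± 0.627 and 6.55% ± 0.760 (SD, n = 5 each), a difference of 0.415 percentage points with an exact permutation p of 0.349. In the anti-PD1 group the shares were 2.40%, 1.69%, 1.83%, 4.64% and 7.54% in libraries 1 to 5. Library 5 was the only one of them to reach the range of the cured-numbered libraries. Without it the anti-PD1 mean was 2.64% ± 1.37 (SD, n = 4), and with it 3.62% ± 2.49 (SD, n = 5), an exact permutation p of 0.444 against untreated. The anti-CTLA4 shares of 3.59%, 4.00%, 2.77% and 5.17% overlapped with the untreated ones, with an exact permutation p of 0.0952. Ordered by mean Myh2 share, the 6 label groups ran upwards from untreated, anti-PD1, anti-CTLA4 and dual ICI at 5 weeks to untreated and dual ICI at 3 weeks, and the ranges of every neighboring pair in that order overlapped.

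**Figure D2:**
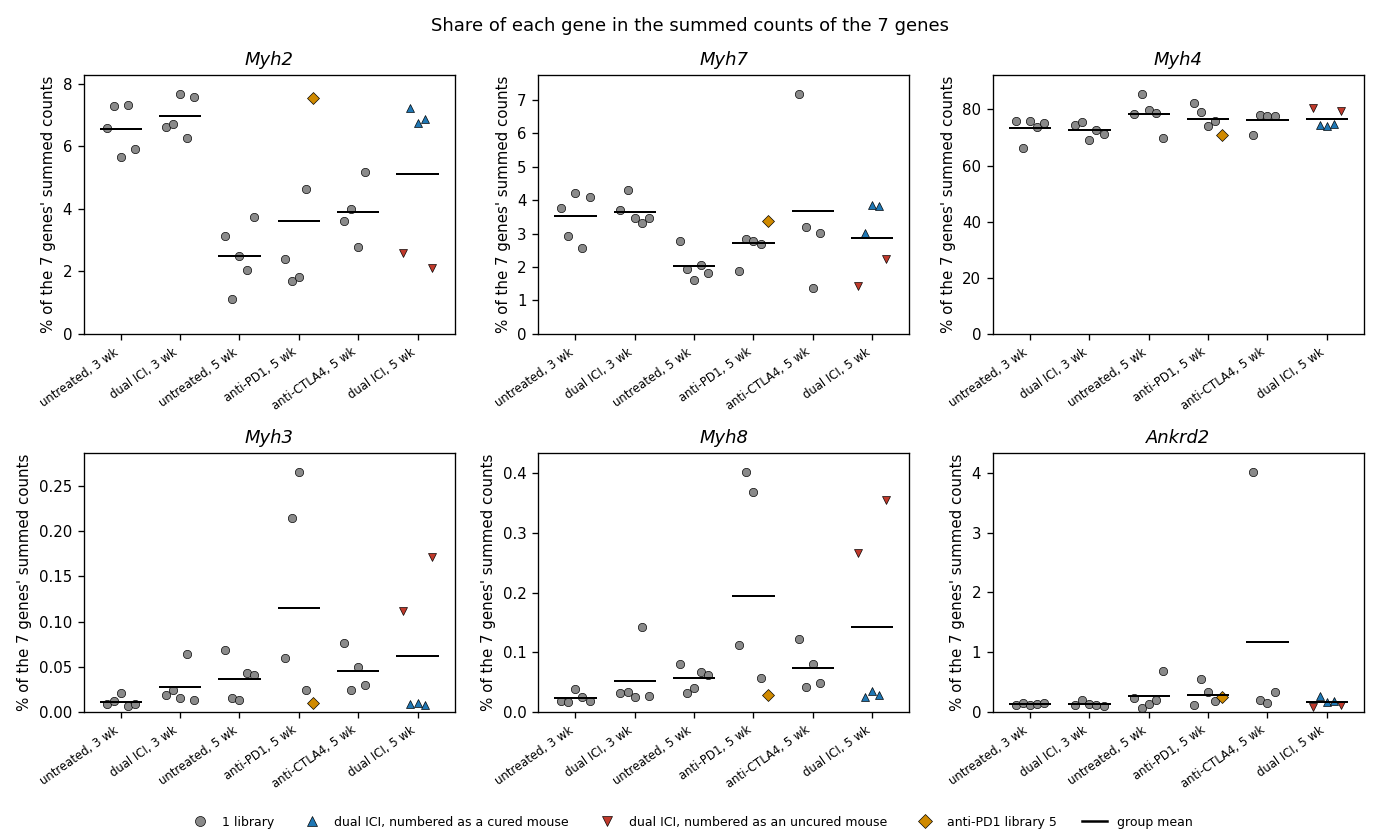
Share of 6 of the genes, as a percentage of the summed counts of the 7 genes in each library, with a line at the group mean of 4 or 5 libraries. Myh2 shares are at 5.67% or more in every 3-week library, in the libraries numbered as cured mice and in anti-PD1 library 5, and at or below 5.17% in all others, and 1 anti-CTLA4 library stands apart for Ankrd2 (4.01%) and Myh7 (7.17%).

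Myh7, the slow chain, differed in the same directions as Myh2, with smaller fold changes, over time in untreated mice and in the cured-numbered libraries. Its level was 1425, 1322, 1956, 518 and 1979 CPM in untreated libraries at 3 weeks and 434, 1429, 313, 674 and 275 CPM at 5 weeks. These groups overlapped, and the log2 difference of -1.20 (SE 0.50) did not pass the test (adjusted p = 0.132, unadjusted p = 0.0337, edgeR). Its share was 3.51% ± 0.726 at 3 weeks and 2.04% ± 0.446 at 5 weeks (SD, n = 5 each), with an unadjusted exact permutation p of 0.0159, and the shares overlapped too, since the highest at 5 weeks (2.78%) lay above the lowest at 3 weeks (2.57%). The 3 cured-numbered libraries had 2661, 3386 and 3199 CPM, all above the untreated maximum at 5 weeks, and Myh7 rose by 2.31 on the log2 scale (SE 0.53, adjusted p = 0.00734, edgeR). Their share was 3.57% ± 0.468 (SD, n = 3), above every untreated share at 5 weeks, with an exact permutation p of 0.0357. Heart muscle also makes Myh7, so 6 cardiac genes were read beside it. They summed to at most 0.00523% of counts, in anti-CTLA4 library 1, Myl7 was the most abundant with a mean of 10.4 CPM, and Nppa, the atrial natriuretic peptide, stayed at or below 0.768 CPM in all 29 libraries.

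Myh4 and Myh1, the fastest chains, were high where the muscle reference list was high. Myh4 was at 65549, 65267 and 62345 CPM in the cured-numbered libraries and at 12261, 62673, 15577, 25908 and 10560 CPM in untreated libraries at 5 weeks. Untreated library 2 reached the level of the cured-numbered libraries, and its muscle reference list (7.72%) and gastric epithelium list (0.110%) were the highest and the lowest of its group. The log2 fold change of Myh4 was 1.34 (SE 0.72), with an adjusted p of 0.151 in edgeR, and that of Myh1 was 1.49 (SE 0.47, adjusted p = 0.0287). Myh1 was at 13052, 13226 and 12045 CPM in the cured-numbered libraries and at 2373, 8307, 3121, 5490 and 3600 CPM in the untreated ones. These levels did not overlap, but the Myh1 call was lost when any 1 of the 3 cured-numbered libraries, or untreated library 1, 3 or 5, was left out. Without untreated library 2 Myh4 was called too (2.03, adjusted p = 0.00209, edgeR). Over time in untreated mice, Myh4 (-0.18, SE 0.56, adjusted p = 0.854) and Myh1 (-0.51, SE 0.42, adjusted p = 0.438) were not called by edgeR. In the uncured-numbered libraries Myh4 was at 14428 and 8900 CPM.

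To set fiber type apart from muscle content, the same counts were also scaled by the summed counts of the muscle reference list. On that scale the log2 fold changes in the cured-numbered libraries were close to 0 for Myh4 (-0.00384, SE 0.19) and Myh1 (-0.09, SE 0.28), whereas Myh2 stayed higher (1.56, SE 0.36, adjusted p = 0.000613, edgeR) and so did Myh7 (0.88, SE 0.37, adjusted p = 0.0305). Ankrd2 was no longer called on it (-0.32, SE 0.59, adjusted p = 0.613), and Myh3 was called lower (-1.95, SE 0.64, adjusted p = 0.00841). On this scale the median log2 fold change of all genes was -1.95, beside -0.05 on the library scale, and 0.379% of genes were called higher and 76.0% lower. With a muscle reference score as a covariate instead, Myh2 was the only 1 of the 7 genes called, and Myh7 was not (0.98, SE 0.39, adjusted p = 0.161). On the scale of summed muscle counts, Myh2 over time in untreated mice was at -1.38 (SE 0.32) with an adjusted p of 0.0524, where 0.417% of genes were called higher and 0.0385% lower and the median of all genes was at 0.70.

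**Figure D3:**
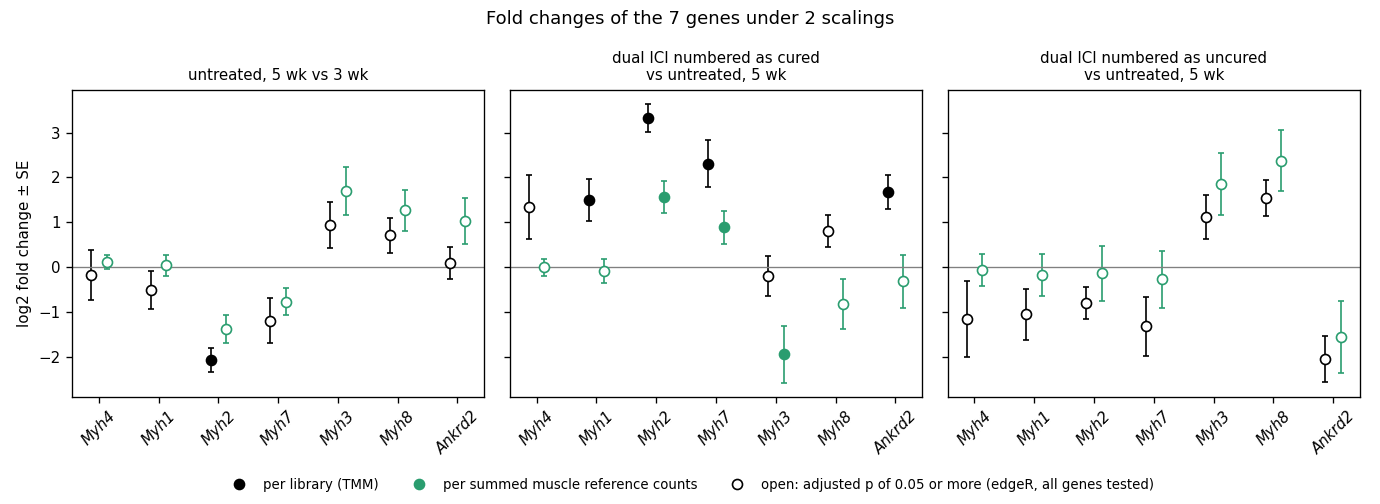
Log2 fold changes with their standard errors from edgeR for the 7 genes in 3 comparisons, scaled per library (TMM, black) or per summed muscle reference counts (green), with filled points where the adjusted p was under 0.05. In the libraries numbered as cured mice Myh4 and Myh1 fall to about 0 on the muscle scale, and Myh2 (1.56) and Myh7 (0.88) stay above it, the latter without a call under the covariate fit, which is not drawn.

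Other genes of slow fibers were read from a list of 11. In the cured-numbered libraries all 11 were called higher (18.0% of all genes were), with a median log2 fold change of 2.18 beside -0.05 for all genes tested. They included Myl2, the slow regulatory light chain (2.68, SE 0.54, adjusted p = 0.00388, edgeR), Tnni1, the slow troponin I (2.53, SE 0.56), Casq2, the slow calsequestrin (2.18, SE 0.30), and Myh7b, a further slow myosin heavy chain (2.45, SE 0.35). Atp2a2, the calcium pump of slow fibers (1.81, SE 0.36), Tpm3, the slow tropomyosin (0.98, SE 0.29), and Tnnt1, the slow troponin T (1.92, SE 0.59), were the other most abundant ones. Of 11 fast fiber genes 3 were called higher, Casq1 (2.57, SE 0.61), Myl1 (2.14, SE 0.57) and Mylpf (1.79, SE 0.61), with a median of 1.33, and of the 16 muscle reference genes 6, with a median of 1.35. The most abundant fast genes Atp2a1 (1.30, SE 0.68), Tnnt3 (1.33, SE 0.62), Actn3 (0.71, SE 0.65) and Tnnc2 (1.42, SE 0.68) did not pass. With each library left out in turn, between 8 and 11 slow genes, 2 and 11 fast genes, and 2 and 14 reference genes were called higher, and the 11 fast and 14 reference genes were those called without untreated library 2, a fit that called 27.6% of 15775 genes higher and 31.9% lower. In the same comparison with every library kept, 20 of 22 gastric epithelium genes tested were called lower (median -6.08), as were 26.7% of all genes. Of the T cell list 4 of 7 genes were lower (median -1.11), Cd4 among them (-1.26, SE 0.28), and of the mesothelium list 3 of 6 were lower and 1 higher, Msln, its most abundant gene, among the lower (-3.39, SE 0.55). Of 8 fibroblast genes 3 were higher and 0 lower (median 0.05), and of 7 adipocyte genes 1 was higher. The part of these cell types in the myosin values was not tested. On the muscle scale 0.379% of all genes were called higher and 76.0% lower, with a median of -1.95. There 3 slow genes were called higher, Myl2 (1.22, SE 0.47), Myl3 (1.23, SE 0.49) and Tnni1 (1.13, SE 0.48), and 0 lower. On the same scale 2 of 11 fast genes were called higher, Casq1 (1.24, SE 0.35) and Myl1 (0.75, SE 0.29), and 2 lower, Actn3 (-0.62, SE 0.26) and Mybpc2 (-0.62, SE 0.28). The median was 0.70 for the slow list and -0.08 for the fast list.

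Over time in untreated mice the slow list had values below 0 that did not pass the test. All 11 genes had a log2 fold change below 0, with a median of -0.80 beside 0.02 for all genes, and 0 were called by edgeR. The nearest were Casq2 (-1.12, SE 0.34, adjusted p = 0.0573) and Atp2a2 (-0.95, SE 0.32, adjusted p = 0.0728). Without untreated library 2 at 5 weeks, 4 of the 11 were called lower, as were 2 of 11 fast and 7 of 16 reference genes and, among the 7 genes, Myh7 (-1.77, adjusted p = 0.00903, edgeR). In that fit 14.8% of 15746 genes were called lower and 16.4% higher. With untreated library 2 kept, the fast list had a median of 0.00464 with 0 of 11 called. On the muscle scale the medians were -0.32 for the slow list and 0.36 for the fast list, beside 0.70 for all genes, with 0 called in either list. On the library scale, with untreated library 2 kept, 5 of 8 fibroblast genes were called lower and 2 of 21 gastric epithelium genes higher. There 4.58% of all genes were called lower and 6.24% higher, and the part of either list in the myosin values was not tested.

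**Figure D4:**
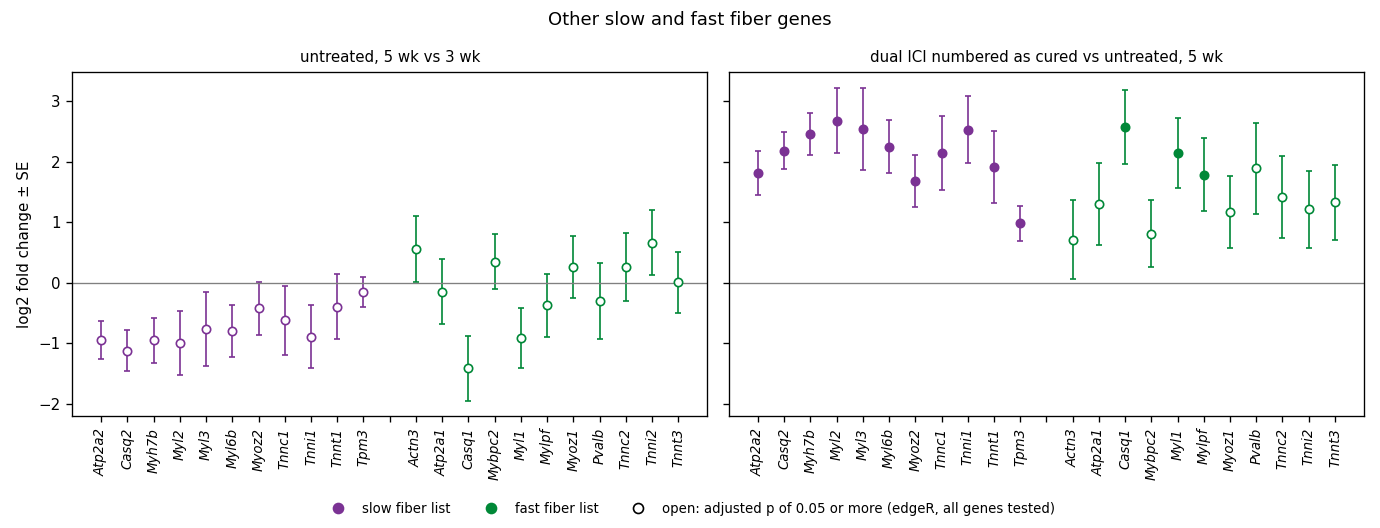
Log2 fold changes with standard errors from edgeR for 11 slow fiber genes (purple) and 11 fast fiber genes (green), over time in untreated mice and in the libraries numbered as cured mice, filled where the adjusted p was under 0.05. All slow genes lie below 0 on the left, where none is filled, and above 0 on the right, where all 11 are filled.

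The developmental chains Myh3 and Myh8 were rare and did not follow the adult chains. In untreated mice Myh8 was at 6.83, 7.39, 18.0, 4.91 and 8.72 CPM at 3 weeks and at 12.4, 22.7, 7.80, 22.1 and 9.46 CPM at 5 weeks. The groups overlapped in level, and the log2 differences of 0.70 for Myh8 (SE 0.40, adjusted p = 0.251) and 0.93 for Myh3 (SE 0.51, adjusted p = 0.243) were not called by edgeR. Their shares were higher at 5 weeks, 0.0561% ± 0.0201 against 0.0231% ± 0.00929 for Myh8 (SD, n = 5 each, exact permutation p = 0.0159) and 0.0363% ± 0.0228 against 0.0112% ± 0.00550 for Myh3 (exact permutation p = 0.0397). The Myh3 difference lost its p under 0.05 in 7 of 10 tests that left out 1 library.

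Both uncured-numbered libraries had higher levels of both chains than any untreated library at 5 weeks, without a call by edgeR. Myh8 was at 47.9 and 39.8 CPM and Myh3 at 19.96 and 19.2 CPM, above the untreated maxima at 5 weeks of 22.7 and 14.0 CPM. Their shares of 0.267% and 0.355% for Myh8 stood above the highest untreated share of 0.0797%, and those of 0.111% and 0.171% for Myh3 above 0.0689%. The log2 fold changes of 1.54 for Myh8 (SE 0.40) and 1.12 for Myh3 (SE 0.49) were not called by edgeR (adjusted p = 0.734 for both, unadjusted p = 0.00408 and 0.0490). For both shares the exact permutation test gave p = 0.0952, the lowest value possible for 2 against 5 libraries. Of the 12 genes of developing or regenerating muscle listed beside them, 7 were above 0, with a median of 0.06 and 0 called. All 16 muscle reference genes were below 0 (median -1.08, 0 called), and the summed counts of the 7 genes that form the base of the shares took 2.15% and 1.37% of counts in these libraries, against 1.78% to 5.80% in the untreated ones. The T cell list stood high in both, with all 7 genes above 0, a median log2 fold change of 1.23 and 0 called, and its part in the myosin values was not tested.

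In the cured-numbered libraries the shares of Myh3 lay between 0.00806% and 0.00991%, below every untreated share at 5 weeks, with an exact permutation p of 0.0357. For Myh8 the shares of 0.0255%, 0.0356% and 0.0278% overlapped with the untreated ones (p = 0.0714, exact permutation). The levels of Myh3 (7.53, 8.72 and 6.73 CPM) and of Myh8 (22.4, 31.3 and 23.2 CPM) were not called by edgeR, with log2 fold changes of -0.20 (SE 0.44, adjusted p = 0.725) and 0.80 (SE 0.36, adjusted p = 0.0938). With 1 library left out the Myh8 value ranged from 0.62 to 1.03, and Myh8 was called higher without untreated library 2 or 4. The low shares stand beside levels of the adult chains that were high in the same libraries.

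Anti-PD1 libraries 2 and 3 had the highest levels of both chains in the series, 54.7 and 51.0 CPM for Myh8 and 29.1 and 36.7 CPM for Myh3. Libraries 1, 4 and 5 had 32.8, 13.9 and 23.1 CPM of Myh8. The log2 fold changes against untreated were 1.23 for Myh8 (SE 0.43) and 1.12 for Myh3 (SE 0.55), with adjusted p-values of 1.00 for both in edgeR. At 3 weeks the dual ICI group differed by 0.75 for Myh8 (SE 0.41) and 0.90 for Myh3 (SE 0.49), both with an adjusted p of 0.577 in edgeR. There the Myh3 share was 0.0271% ± 0.0211 against 0.0112% ± 0.00550 (SD, n = 5 each), with an exact permutation p of 0.0476, and dual ICI library 4 stood apart at 0.0642%. This difference too lost its p under 0.05 in 7 of 10 tests that left out 1 library. In the same comparison 3 of 7 T cell genes were called higher, with a median log2 fold change of 1.62, where 0.574% of all genes were called. The part of the T cell genes in the myosin values was not tested.

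Of 12 genes of developing or regenerating muscle, 11 were tested over time. Tnnt2, the embryonic troponin T (1.43, SE 0.24, adjusted p = 0.00772, edgeR), and Myl4, the embryonic light chain (1.88, SE 0.41, adjusted p = 0.0192), were higher at 5 weeks, and Pax7, the satellite cell factor (-1.50, SE 0.33, adjusted p = 0.0197), and Actc1, the fetal and cardiac actin (-2.14, SE 0.54, adjusted p = 0.0312), were lower. These were 2 genes higher and 2 lower, beside 6.24% and 4.58% of all genes, and the list's median of 0.11 lay beside 0.02 for all genes. On the muscle scale 1 of the 11 was called higher and 0 lower, with a median of 0.58 beside 0.70 for all genes. There 0.417% of all genes were called higher and 0.0385% lower. On the library scale, with 1 library left out at a time, 1 to 4 of the list's genes were called higher and 0 to 4 lower. In the cured-numbered libraries Pax7 (2.27, SE 0.37, adjusted p = 0.00140), Actc1 (3.16, SE 0.56, adjusted p = 0.00211) and Myf5, a myogenic factor of satellite cells (1.81, SE 0.40, adjusted p = 0.00633), were called higher by edgeR, and Tnnt2 (-1.48, SE 0.29, adjusted p = 0.00327) and Ncam1 (-0.46, SE 0.16, adjusted p = 0.0377) lower. These 3 and 2 of 12 genes stand beside 18.0% of all genes called higher and 26.7% lower. On the muscle scale 1 of the 12 was called higher, Actc1 (1.70, SE 0.54), and 8 lower, where 0.379% of all genes were called higher and 76.0% lower, and the list's median of -1.99 lay beside -1.95 for all genes. Pax7 (0.44, SE 0.65) and Myf5 (0.12, SE 0.65) were not called on that scale. On the library scale the abundant members Chrna1 (-0.64, SE 0.38), an acetylcholine receptor subunit, and Myod1 (0.79, SE 0.67), a myogenic factor, did not pass.

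Ankrd2 had its highest levels in the 3 cured-numbered libraries, anti-PD1 library 5 and anti-CTLA4 library 1. In untreated mice its level was 43.5, 63.6, 51.5, 27.5 and 73.1 CPM at 3 weeks and 37.5, 43.5, 27.4, 63.0 and 104 CPM at 5 weeks. These ranges overlapped, and the log2 fold change was 0.09 (SE 0.36, adjusted p = 0.894, edgeR). In the cured-numbered libraries it was 228, 142 and 150 CPM, all above the untreated maximum, and rose by 1.67 on the log2 scale (SE 0.38, adjusted p = 0.00752, edgeR). In the uncured-numbered libraries it was 14.4 and 12.4 CPM, the 2 lowest levels of the 29 libraries, a log2 fold change of -2.05 (SE 0.51) that edgeR did not call (adjusted p = 0.734, unadjusted p = 0.00302) and DESeq2 did (adjusted p = 0.0341). The muscle reference list took 8.04% to 8.87% of counts in the cured-numbered libraries and 2.37% and 2.96% in the uncured-numbered ones. Per 100 counts of that list Ankrd2 had 0.179, 0.119 and 0.135 counts in the cured-numbered and 0.0584 and 0.0638 in the uncured-numbered libraries, which did not overlap, and 0.0445 to 0.472 in the untreated libraries at 5 weeks. As a share of the 7 genes Ankrd2 lay at 0.260%, 0.161% and 0.180% in the cured-numbered and 0.0804% and 0.110% in the uncured-numbered libraries, and both sets overlapped with the untreated range of 0.0593% to 0.690%.

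Anti-CTLA4 library 1 had 321 CPM of Ankrd2, the highest of all libraries, where the other 3 of its group had 83.8, 39.9 and 80.8 CPM. It also had the lowest Myh4 level of all libraries, 5675 CPM, and its Ankrd2 share was 4.01% against 0.146% to 0.337% in the other 3. The group's log2 fold change of 1.23 (SE 0.57) was not called by edgeR (adjusted p = 1.00) and was 0.29 without that library. The mean share was 1.17% ± 1.89 (SD, n = 4) against 0.264% ± 0.247 (SD, n = 5), with an exact permutation p of 0.429, and without the library the anti-CTLA4 mean was 0.227% ± 0.0983 (SD, n = 3). The same library held 7.17% of Myh7, the highest share of that gene. Its cardiac list was the highest of the 29 libraries as well, 0.00523% of counts against 0.00162% to 0.00175% in the other 3 of its group. Myl7, the atrial light chain, was at 38.4 CPM there against 8.34 to 11.9 CPM, while Nppa was at 0.0890 CPM, and the part of heart muscle in the Myh7 share was not tested. The cardiac list took 0.0028% and 0.0039% in the uncured-numbered libraries and 0.00096% to 0.0011% in the cured-numbered ones. In untreated library 5 at 5 weeks it took 0.00114%, beside 0.411% for gastric epithelium. In anti-CTLA4 library 1 the gastric epithelium list took 0.579% of counts, and its part in the cardiac list was not tested. Hspb7 (657 CPM), a small heat shock protein of muscle, and Flnc (2617 CPM), the muscle filamin, were also higher there than in the other 3 anti-CTLA4 libraries, where they lay between 156 and 215 CPM and between 718 and 831 CPM.

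Ankrd1 and Ankrd23 encode the other titin-binding ankyrin repeat proteins, and Ankrd1 did not follow Ankrd2. In untreated mice Ankrd1 was at 8.27, 4.61, 12.9, 15.9 and 11.6 CPM at 3 weeks and at 81.3, 61.6, 52.1, 65.6 and 193 CPM at 5 weeks. The groups were far apart, and Ankrd1 was higher at 5 weeks by 3.09 on the log2 scale (SE 0.42, adjusted p = 0.00465, edgeR). Here too, time and library series cannot be told apart. The cured-numbered libraries had 7.06, 15.8 and 4.84 CPM, below every untreated library at 5 weeks, with a log2 fold change of -3.27 (SE 0.57, adjusted p = 0.00196, edgeR). On the muscle scale these values were 3.84 (SE 0.70) and -5.38 (SE 0.81), and edgeR called both. On the library scale both calls were kept with each library left out in turn. The uncured-numbered libraries had 32.5 and 55.4 CPM, and anti-PD1 library 5, whose gastric epithelium list was near 0, had 118 CPM. Untreated library 5 at 5 weeks, with the most Ankrd1, also had the most Ankrd2 (104 CPM), Hspb7 (567 CPM) and Flnc (1631 CPM) of its group. Ankrd23 was at 3530, 3970 and 2884 CPM in the cured-numbered libraries, with a log2 fold change of 1.04 (SE 0.40) that was not called (adjusted p = 0.0585, edgeR).

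Of the 9 genes in the list of titin ankyrin repeat and stretch-linked genes, 5 were called higher and 1 lower in the cured-numbered libraries, where 18.0% of all genes were called higher and 26.7% lower. On the muscle scale 0 of the 9 were called higher and 2 lower, Ankrd1 and the actin-binding Nrap (-0.94, SE 0.39, adjusted p = 0.0296, edgeR), with a median of -0.14 beside -1.95 for all genes. On that scale 0.379% of all genes were called higher and 76.0% lower. Nrap was at 0.74 (SE 0.42) on the library scale, without a call. Those higher on the library scale were Fhl1, a LIM protein (2.42, SE 0.39, adjusted p = 0.00119, edgeR), Csrp3, the muscle LIM protein (2.12, SE 0.49), Smpx (1.75, SE 0.40), the actin-binding Xirp2 (1.78, SE 0.45) and Capn3, a titin-bound protease (1.37, SE 0.45). Ankrd1 was the one lower. With each library left out in turn between 4 and 7 were called higher and 1 lower. Over time in untreated mice Ankrd1 was called higher and Fhl1 lower (-1.44, SE 0.33, adjusted p = 0.0215), where 6.24% of all genes were called higher and 4.58% lower. The Fhl1 call was lost without untreated library 2, 3 or 5 at 3 weeks, when 0 genes of the list were called lower, and 4 were called lower without untreated library 2 at 5 weeks, a fit that called 14.8% of 15746 genes lower. On the muscle scale Fhl1 was at -0.63 (SE 0.40) and was not called. Nrap differed by 0.43 (SE 0.38) over time without passing.

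**Figure D5:**
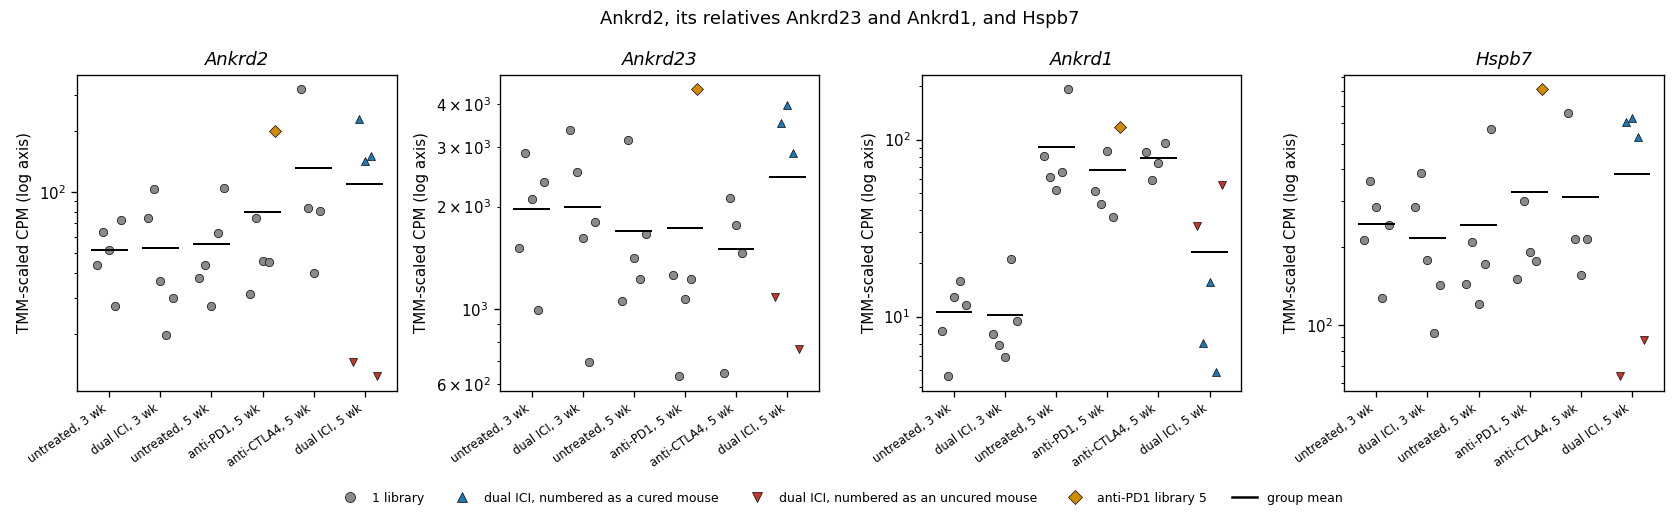
TMM-scaled CPM of Ankrd2, Ankrd23, Ankrd1 and Hspb7 on log axes, with 1 point for each of 29 libraries and a line at the group mean. Ankrd1 is at or below 21.1 CPM in all 3-week libraries and in the libraries numbered as cured mice and at or above 32.5 CPM in all others, anti-PD1 library 5 included, while the 5 highest Ankrd2 points are the cured-numbered libraries, anti-PD1 library 5 and anti-CTLA4 library 1.

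Pearson's r of log2 CPM over the 29 libraries was used as a description, since all points share the amount of muscle in a library. It was ranked among 16339 genes, which leave out the followed genes themselves. For Myh2 the genes most alike in pattern were Perm1 (r = 0.975), a muscle regulator of mitochondrial genes, Ckmt2 (0.974), the mitochondrial creatine kinase of muscle, and Slc41a3 (0.971). Perm1 lay at 280 to 317 CPM in the cured-numbered libraries and 20.1 to 96.1 CPM in untreated libraries at 5 weeks. For Myh7 they were the slow light chain Myl2 (0.977), Tnni1 (0.975) and the slow light chain Myl3 (0.967). Myh4 ran with Pygm (0.993), the muscle glycogen phosphorylase, Kctd15 (0.991) and Cacna1s (0.986), the calcium channel of the T-tubule, and Myh1 with Capn3 (0.975), Cacna1s (0.967) and Cd99l2 (0.966).

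Outside the followed genes, Myh3 and Myh8 shared all 3 of their nearest genes. These were Myl4 (r = 0.858 and 0.843), Tmem8c, the older symbol of the fusion protein myomaker (0.787 and 0.735), and Chrng, the fetal subunit of the acetylcholine receptor (0.748 and 0.661). With each other Myh3 and Myh8 had an r of 0.907, above that of either with Myl4. With the 4 adult chains both Myh3 and Myh8 lay between -0.40 and 0.05. The 4 adult chains had values between 0.842 and 0.952 among themselves. Ankrd2 was most like Hspb7 (0.945), Flnc (0.908) and Rgcc (0.903), a cell cycle regulator, and its r with the 6 myosins was highest for Myh7 (0.591).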

How the data were processed

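RNA was taken from stripped peritoneum, and paired-end libraries were aligned to mm10. The labels name STAR 2.7.0f and featureCounts 1.6.4, while the study's methods name HTSeq for counting. The authors deposited raw, whole-number counts for each gene symbol, without normalization, in 24421 genes and 29 libraries, 1 per mouse. The members and lists were chosen with earlier results of these data known. Counts were tested with edgeR 4.0.16 in R 4.3.3 (TMM, filterByExpr, glmQLFit and glmQLFTest, two-sided, Benjamini-Hochberg over all genes tested, adjusted p under 0.05), fitting only the libraries compared. For shares, the difference of group means was tested by exact permutation, two-sided (SciPy 1.17.1). There were 49 such tests, of which 8 had a p under 0.05, without adjustment. Both procedures were run on simulated data, edgeR for some of the comparisons and the share test for the Myh2 share only. Those runs do not vouch for the other tests, such as those of the rare Myh3 and Myh8 shares. Log2 CPM used a prior count of 2. Mymk and Mymx were found as Tmem8c and Gm7325, and Muc16 of 7 mesothelium genes was not matched. The genes named are the 7 members, 3 most alike genes for each, the 4 most abundant genes of the fiber, regeneration and stretch lists, called genes of the lists counted, and, chosen after their values were seen, Nppa and the values of Ankrd1 by library. Alternatives were DESeq2 1.42.0, other normalizations, filters and muscle scalings, a fit of all libraries, a replicate block, other denominators of the shares, and each library left out. Counting intervals do not cover differences between mice.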

Additional observations from a re-analysis of the deposited data

Results flagged for a closer look

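Of 84 sets of levels and shares (7 genes in 6 label groups), 13 had a highest or lowest library whose gap to the next, over the range of the group, passed Dixon's 95% limit. By chance about 5% of sets would, and the sets are not independent.

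Anti-PD1 library 5 was the highest of its group for Myh1 (14810 CPM, next 4081), Myh2 (6228 CPM, next 1133), Myh4 (58544 CPM, next 24007), Myh7 (2785 CPM, next 654) and Ankrd2 (199 CPM, next 74.6). Its gastric epithelium list was at 0.0057% of counts. Anti-CTLA4 library 1 was the highest of its group for Ankrd2 in level (321 CPM, next 83.8) and share (4.01%, next 0.337%) and the lowest for the share of Myh4 (70.9%, next 77.8%). Untreated library 2 at 3 weeks was the highest for the share of Myh1 (23.3%, next 16.4%) and the lowest for that of Myh4 (66.3%, next 73.6%). Untreated library 5 at 5 weeks was the highest for the share of Ankrd2 (0.690%, next 0.240%). Dual ICI library 4 at 3 weeks was the highest for the shares of Myh3 (0.0642%, next 0.0240%) and Myh8 (0.142%, next 0.0340%).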

How the results depend on the processing

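The numbers of the 7 genes called kept within 1.5 times their value in 58 of 63 settings other than leaving a library out. Most of these settings belong to comparisons with 0 called, where this means only that 0 stayed 0. Over time in untreated mice, 1 gene became 0 with all 29 libraries in 1 fit (Myh2 -2.08, SE 0.80, adjusted p = 0.109, edgeR), 3 with a muscle reference score as a covariate (Myh2, Myh7 and Myh8) and 0 with the muscle reference sum as library size, and ranged from 1 to 2 with 1 library left out. In the uncured-numbered libraries DESeq2 called 1. For the cured-numbered libraries, 4 became 1 with the muscle covariate (Myh2), 3 with the muscle sum and 5 with DESeq2. The 3 with the muscle sum were Myh2 and Myh7, called higher, and Myh3, called lower, which is not among the 4. The number ranged from 3 to 6 with 1 library left out, 6 without untreated library 2. With a replicate block the counts were 1 over time, 3 in the cured-numbered libraries and 0 elsewhere, and Myh1 was lost (adjusted p = 0.181, edgeR). Deviations from the group means had a median r of 0.0346 between libraries of the same number (from -0.91 to 0.71). Between libraries of other numbers the median r was -0.00567 (from -0.91 to 0.88). These values cannot show whether libraries of the same number shared any handling, which the labels do not give.

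Directions turned in few settings. Over time Myh1 was at 0.0384 with the muscle sum, and Myh4 at 0.00117 with the covariate and 0.12 with the sum. In the cured-numbered libraries Myh1 was at -0.0858 and Ankrd2 at -0.32 with the sum, Myh4 at -0.19 with the covariate and -0.00384 with the sum, and Myh8 at -0.14 and -0.83. With the muscle reference as denominator, the 3-week difference was -0.0402 percentage points for Myh2, while that of Myh3 kept its direction at 0.00985. The cause was not tested. With 1 library left out, log2 fold changes ranged from -0.0759 to 1.78 for Myh2 in anti-PD1 (lowest without library 5), and over time from -0.86 to 0.0156 for Myh4 and from -0.27 to 0.26 for Ankrd2. For Myh3 in the cured-numbered libraries they ranged from -0.44 to 0.0599. Share differences, in percentage points, ranged from 0.00672 to 0.0194 for Myh3 at 3 weeks (lowest without dual ICI library 4), from 2.08 to 3.35 for Myh2 in dual ICI at 5 weeks, from -0.0371 to 1.25 for Ankrd2 in anti-CTLA4 (lowest without library 1) and from 0.0170 to 0.0308 for Myh3 over time. Each of these Myh3 differences, at 3 weeks and over time, lost its p under 0.05 in 7 of 10 such tests. For the cured-numbered libraries they ranged from 4.09 to 4.75 for Myh2, from 1.39 to 1.80 for Myh7 and from -0.0331 to -0.0193 for Myh3, where none of the 8 smaller designs can reach 0.05 in an exact permutation test (lowest possible p 0.0571 or 0.0952). In the uncured comparison a lone library is assumed to vary like the untreated ones.

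Over all genes, dual ICI at 3 weeks called 89, against 502 with DESeq2, 8 in 1 fit of all libraries, 209 with the replicate block, 646 with the muscle covariate, 0 with the muscle sum and 6 to 119 with 1 library left out. The time comparison called 1687, against 3168 with DESeq2, 3822 with the covariate, 71 with the sum and 654 to 4915 with 1 library left out. The cured-numbered comparison called 7067, against 4016 with the block, 1692 with the covariate, 12078 with the sum and 4491 to 9388 with 1 library left out. In dual ICI at 5 weeks the covariate called 1 gene, and in the uncured-numbered libraries the sum called 1, where the counts were otherwise 0 with edgeR. The numbers of genes at an unadjusted p under 0.05 in edgeR also moved with 1 library left out. At 5 weeks they ranged from 489 to 2693 in dual ICI, from 125 to 434 in anti-PD1 (314 without library 5) and from 91 to 337 in anti-CTLA4.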
